A study of Homo sapiens with 24 samples.

Results

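Readthrough genes are annotated where one transcript runs from a gene into its neighbour and is spliced into a single RNA. Members were the genes of the expression table whose GENCODE 29 symbol joins the symbols of 2 other GENCODE 29 genes with a hyphen, and the neighbours are called the upstream and the downstream parent here. The rule found 36 of the 12285 genes in the table. GENCODE 29 held 125 genes by the same rule, and the other 89 were not analysed here because the table does not list them. Every gene listed had 1 FPKM (a length-scaled unit of level) or more at 12 hours or more. The levels and shares below therefore describe only readthrough genes that reached this level. The 36 readthrough genes had 72 parents, of which 59 were in the table. Both parents were listed for 25 readthrough genes, the upstream parent alone for 7, the downstream parent alone for 2 (SYNJ2BP-COX16 and PDXDC2P-NPIPB14P) and neither for 2 (BOLA2-SMG1P6 and SUGT1P4-STRA6LP).

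The data were RNA sequencing of K562, an established human line from a chronic myeloid leukaemia with erythroid features. The labels name no engineered allele and no agent. The cells were grown in RPMI with 10% BCS and P/S, synchronised by centrifugal elutriation, which sorts cells by size, and collected every 2 h from 0 h to 46 h. Each of the 24 time points had 1 library and no replicate, so differences between hours were set against the other hours of the course and were given no error from replicates.

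Transcription normally ends after the polymerase passes a poly(A) signal, where the RNA is cut and a poly(A) tail is added. When the signal is passed over, the polymerase can continue into the next gene on the same strand, and splicing can then remove the last exon of the first gene together with the first exon of the second. The product can encode a fusion of both proteins, or it can carry an early stop codon and be degraded by nonsense-mediated decay. Because its exons are largely those of its parents, a short sequencing read often fits the readthrough RNA and a parent equally well.

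The annotation showed that readthrough genes differed in how much of their exon sequence was their own. Both parents lay on the same strand in all 36 cases. The median distance between them was 1998.5 bases, and distances ran from -17689 bases, an overlap, for ATP5MF and PTCD1 to 108016 bases for ARMCX5 and GPRASP2. A median of 10.8% of a member's exon bases lay outside the exons of both parents, and this percentage ran from 0% to 65.0%. It was 0% in 7 members, namely NME1-NME2, NEDD8-MDP1, COMMD3-BMI1, CHURC1-FNTB, HNRNPUL2-BSCL2, MSANTD3-TMEFF1 and RPL17-C18orf32. NME1-NME2 had 51.4% of its 1241 exon bases in NME1 and 48.6% in NME2, and of its 10 splice junctions 1 belonged to neither parent.

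A splice junction that joined an exon of the upstream parent to an exon of the downstream parent was annotated in 30 of the 36 readthrough genes. In 24 of them both sides of such a junction were coding, and in 21 of those at least 1 junction kept the reading frame of the downstream parent. The 36 genes had 165 transcripts, of which 64 were annotated as coding and 56 as targets of nonsense-mediated decay. HNRNPUL2-BSCL2 had 1 transcript, and it was of the decay class.

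The junctions of 6 members are shown because their levels are described hour by hour below. The last 15 bases of the upstream exon are in lower case and the first 15 bases of the downstream exon are in capitals. Every base shown is coding in the readthrough transcript named, and every junction keeps the frame of the downstream parent. Sequences and positions are those of GENCODE 29 on GRCh38.
NME1-NME2: catacaagttggcagGACCATGGCCAACCT
TMED7-TICAM2: aagagtggcctattgGCACAGTGTGGATAC
NEDD8-MDP1: cagtggcaagcagatTGATGGAACTGTACG
COMMD3-BMI1: atggaacaattacagGATTTTTTATCAAGC
CHURC1-FNTB: atggatgaatttcagGCAAAAGTAGAAGAA
RBM14-RBM4: gtgacgtggtgaaagGCAAACGAATGCACG

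The junction of NME1-NME2 (ENST00000376392) joined chr17:51161258-51161272 to chr17:51166827-51166841 on the plus strand, across an intron of 5554 bases. The junction of TMED7-TICAM2 (ENST00000282382) joined chr5:115616318-115616332 to chr5:115581183-115581197 on the minus strand, and its intron was 35120 bases long. NEDD8-MDP1 (ENST00000534348) joined chr14:24218133-24218147 to chr14:24215648-24215662 on the minus strand. COMMD3-BMI1 (ENST00000602390) joined chr10:22319004-22319018 to chr10:22326431-22326445 on the plus strand. CHURC1-FNTB (ENST00000549987) joined chr14:64926066-64926080 to chr14:65004249-65004263 on the plus strand, across the longest intron of the 6, 78168 bases. RBM14-RBM4 (ENST00000412278) joined chr11:66617043-66617057 to chr11:66643450-66643464 on the plus strand. In the members with no exon base of their own in the annotation used here, a read that crosses no junction of the readthrough gene cannot be told from a read of a parent.

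Several libraries stood apart across the whole table, and the values of the readthrough genes at those hours are given separately. The authors name 16 h and 18 h, and to a lesser degree 32 h, as anomalous time points. They propose that such anomalies are likely technical and not biological, with a source not yet known. That origin was not tested here. At 16 h and 18 h, 8.95% of 12253 genes were at least 2-fold above the line between 14 h and 20 h, and 7.11% were at least 2-fold below it. These genes had mean levels of 1 FPKM or more, a unit that divides sequenced fragments by transcript length and library size. Genes also left their usual range at 6 h and 32 h, and to a lesser degree at 22 h, 28 h and 30 h. The range over the 17 remaining hours is therefore used below as the usual range of a gene, a choice made after the values had been seen. All 15 erythroid markers were in the table, and their summed level ran from 4426 FPKM at 18 h to 9522 FPKM, with 4782 FPKM at 16 h. At 16 h and 18 h, 7 of the 15 were at least 2-fold below the line and 1 at least 2-fold above, with a median of -0.73, and their part in the values of the readthrough genes was not tested. The 2 fibroblast markers listed summed to 4.59 to 10.9 FPKM and the 3 lymphoid markers to 20.2 to 56.0 FPKM. Sequencing depth is unknown, and in bulk samples fewer cells of a type and less RNA per cell cannot be told apart.

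Readthrough genes were mostly low beside their parents. Their mean levels over the 24 hours ran from 1.09 FPKM in SENP3-EIF4A1 to 50.0 FPKM in NME1-NME2, with a median of 2.71 FPKM. The 59 parents had a median of 23.3 FPKM and all genes 13.7 FPKM. The mean was below 3 FPKM in 19 readthrough genes and at least 10 FPKM in 6. Among the 25 with both parents listed, 16 were below both parents, 8 were above the downstream parent and 1, PKD1P6-NPIPP1, was above the upstream parent. The readthrough gene held a median of 6.21% of the summed FPKM of the 3 genes, and this share ran from 0.152% in SENP3-EIF4A1 to 31.8% in PKD1P6-NPIPP1. FPKM is scaled to length, so these shares compare levels and not numbers of reads.

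The parents of the 6 most abundant readthrough genes are known for the following roles. NME1-NME2 joins a pair of nucleoside diphosphate kinases, which keep nucleoside triphosphate pools in balance. RBM14-RBM4, with a mean of 23.5 FPKM, joins genes of RNA-binding proteins that act in transcription and splicing. SYNJ2BP-COX16, at 16.9 FPKM, joins an outer mitochondrial membrane protein to an assembly factor of cytochrome c oxidase. HNRNPUL2-BSCL2, at 15.1 FPKM, joins an RNA-binding protein to seipin, a protein of lipid droplet formation. MSH5-SAPCD1, at 13.9 FPKM, begins with a meiotic member of the MutS family, and PKD1P6-NPIPP1, at 12.0 FPKM, joins pseudogenes of multicopy families whose reads cannot be placed with certainty.

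**Figure D1:**
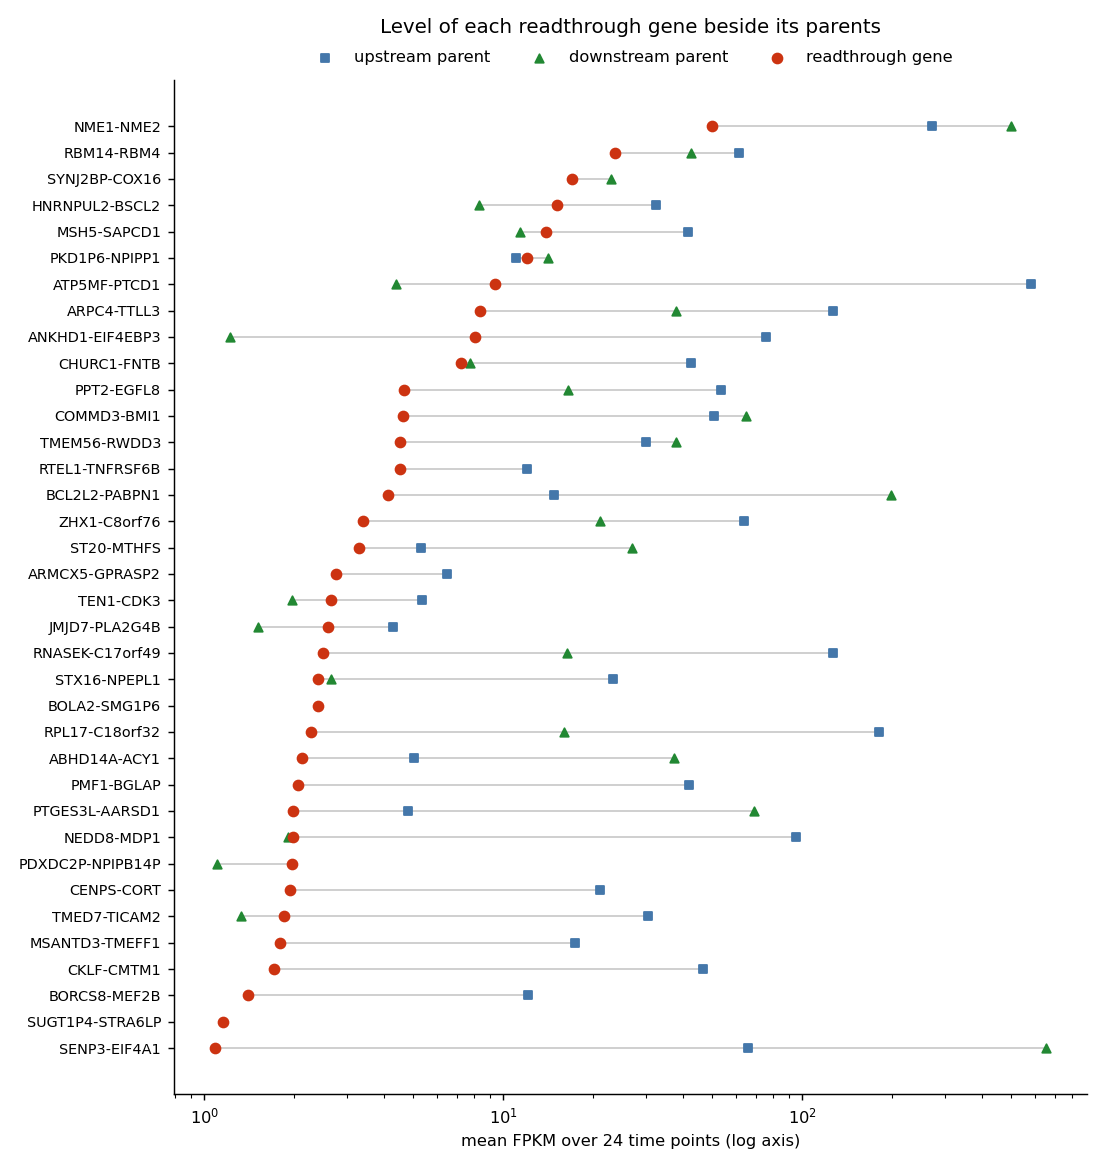
Mean FPKM over the 24 time points (horizontal, log axis) of each of the 36 readthrough genes (red circles), its upstream parent (blue squares) and its downstream parent (green triangles), ordered by the level of the readthrough gene. Grey lines join the genes of a row, parents that are not in the table have no symbol, and 16 of the 25 readthrough genes with both parents listed lie left of both.

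HNRNPUL2-BSCL2 and JMJD7-PLA2G4B were examples of readthrough genes above their downstream parent. HNRNPUL2-BSCL2 was 182% of BSCL2 and 46.7% of HNRNPUL2, and it held between 22.6% and 31.4% of the summed level of the trio at every hour. JMJD7-PLA2G4B, which joins a JmjC-domain hydroxylase to a cytosolic phospholipase, was 172% of PLA2G4B and 60.5% of JMJD7. TEN1-CDK3, which joins a telomere-capping protein to a cyclin-dependent kinase, held a mean of 27.1% of the summed level of its trio and was 135% of CDK3. SENP3-EIF4A1, which joins a SUMO protease to a translation initiation helicase, was 0.167% of EIF4A1 and 1.65% of SENP3.

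NME1-NME2 was outside its usual range at 16 h, 18 h, 22 h, 28 h, 30 h and 32 h. Over the 17 usual hours its lowest value was 19.3, its median 41.5 and its highest 72.9 FPKM. It was 0.92 FPKM at 16 h and 0.375 FPKM at 18 h, between 35.5 FPKM at 14 h and 54.0 FPKM at 20 h. The values at 16 h and 18 h thus lay below all of the 17 others, and on average they departed from the line between 14 h and 20 h by -4.79 on the log2(FPKM + 1) scale, the lowest of the 36 readthrough genes. This scale understates the change of genes at low levels.

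The same gene was high at 3 other hours. It was 141 FPKM at 22 h, 131 FPKM at 28 h and 147 FPKM at 30 h, above the whole of its usual range, and it was 10.6 FPKM at 32 h, below it. NME2 moved the other way at those hours. NME2 was 292 FPKM at 22 h, 334 FPKM at 28 h and 364 FPKM at 30 h, against 452 to 553 FPKM in the usual hours, and it was 649 FPKM at 32 h. NME1 was 263, 267 and 269 FPKM at 22 h, 28 h and 30 h, within its usual range of 217 to 335 FPKM.

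At 16 h and 18 h NME2 was 530 and 566 FPKM, the second value above its usual range, while NME1 was 220 and 228 FPKM, near the low end of its range. The summed level of NME1-NME2 and NME2 was steadier than NME2. Its coefficient of variation was 10.3% over the 24 hours against 16.3% for NME2, and the sum ran from 434 to 674 FPKM over all 24 hours. With NME1 in place of NME2, the coefficient of variation of the sum was 17.7% against 11.8% for NME1. The sum with NME2 was also lower at 22 h, 28 h and 30 h, at a mean of 470 FPKM against a median of 544 FPKM in the usual hours. Of the 36 readthrough genes, NME1-NME2 alone was above its usual range at all 3 of those hours, as were 5.16% of all genes tested. NME2 was the only one of the 59 parents below its usual range at all 3, as were 1.76% of all genes tested.

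**Figure D2:**
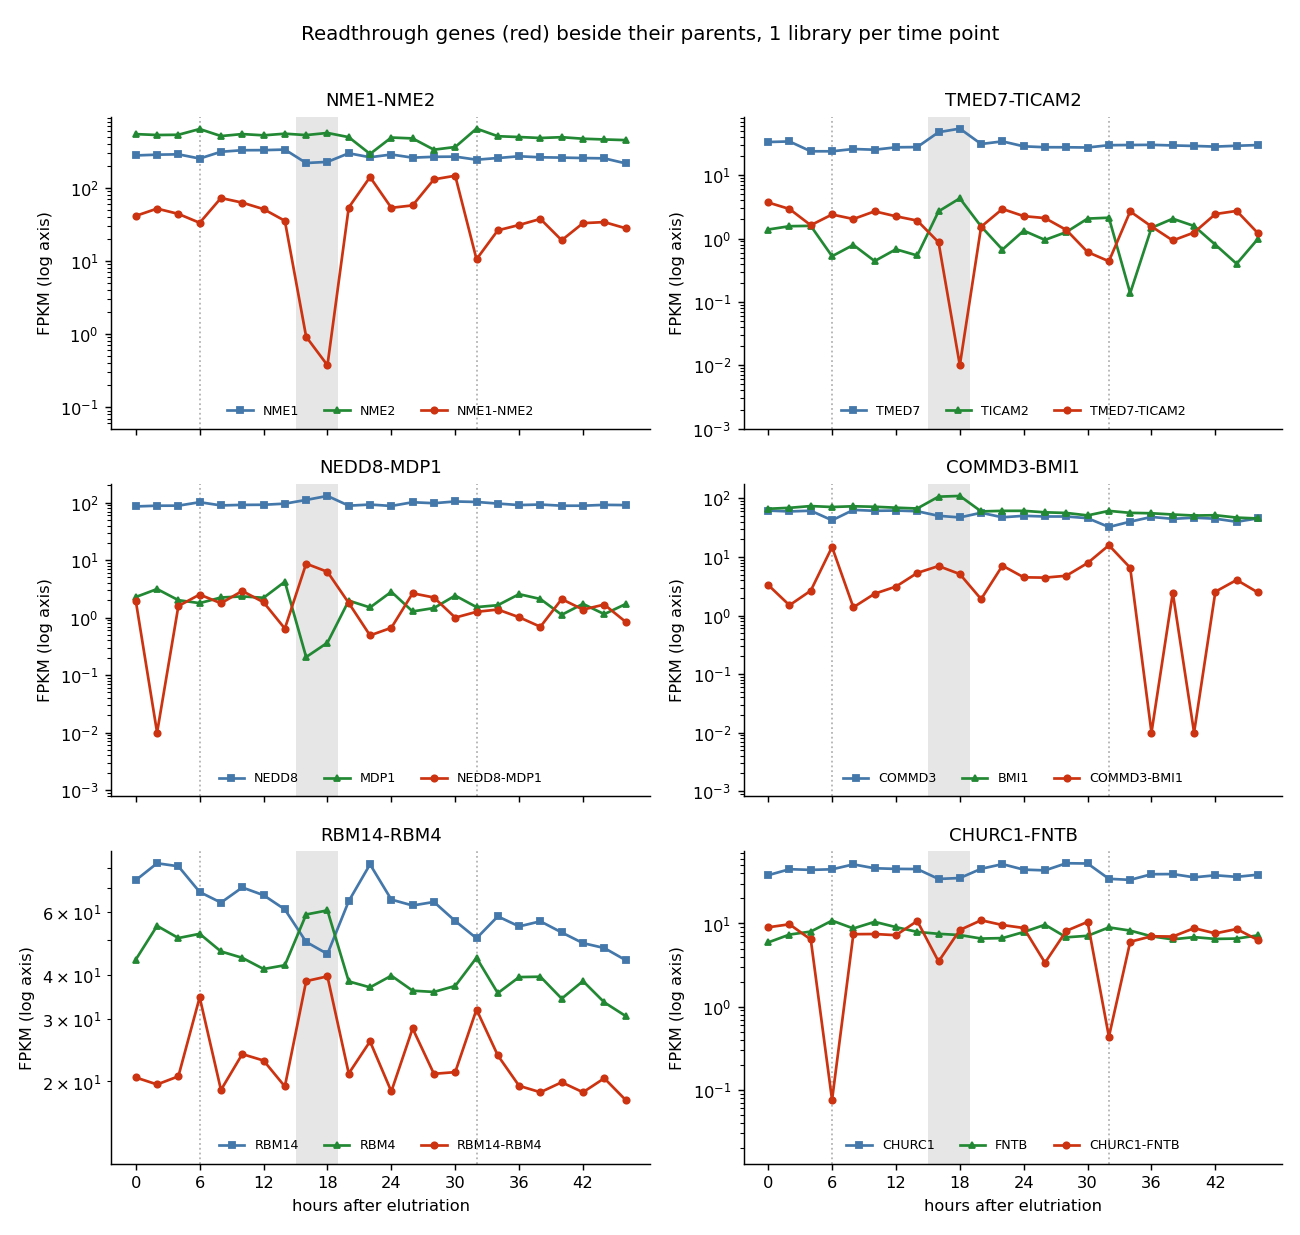
FPKM (log axis) by hour after elutriation for 6 readthrough genes (red circles), their upstream parents (blue squares) and their downstream parents (green triangles), with 1 library per point. Grey bands mark 16 h and 18 h, dotted lines mark 6 h and 32 h, and values below 0.01 FPKM are drawn at 0.01; the 6 panels show NME1-NME2 at 0.92 and 0.375 FPKM in the bands and CHURC1-FNTB at 0.0756 and 0.434 FPKM on the dotted lines.

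TMED7-TICAM2 joins a cargo receptor of the secretory pathway to TICAM2, an adaptor of Toll-like receptor 4. Its lowest, median and highest values in the usual hours were 0.931, 2.10 and 3.70 FPKM. It was 0.873 FPKM at 16 h and under 0.1 FPKM at 18 h, where TICAM2 reached 2.68 and 4.30 FPKM against a usual range of 0.137 to 2.05 FPKM. At 34 h the order was turned around, with TICAM2 at 0.137 FPKM and TMED7-TICAM2 at 2.68 FPKM. TMED7 was 47.6 and 54.2 FPKM at 16 h and 18 h, above its usual range of 23.8 to 34.0 FPKM.

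The readthrough gene and TICAM2 took the same direction in 2 of the 23 steps of 2 h. Only 2 of all other genes in the table shared so few steps with TMED7-TICAM2, TICAM2 being one of them. Their summed level had a coefficient of variation of 20.9% over the 24 hours, against 67.9% for TICAM2. TMED7-TICAM2 was 139% of TICAM2 and 6.05% of TMED7 on average.

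NEDD8-MDP1 joins a ubiquitin-like modifier to a phosphatase, and it moved against its downstream parent in the same hours with the opposite sign. It was 8.68 FPKM at 16 h and 6.26 FPKM at 18 h, above all usual hours, whose median was 1.59 and whose highest value was 2.91 FPKM. It was under 0.1 FPKM at 2 h. MDP1 was 0.206 and 0.366 FPKM at 16 h and 18 h, below its usual range of 1.12 to 4.21 FPKM. NEDD8 was 111 and 131 FPKM, above its usual range of 85.9 to 102 FPKM. NEDD8-MDP1 and MDP1 took the same direction in 6 of 23 steps, and 356 genes shared no more steps than that with NEDD8-MDP1. The coefficient of variation of their sum over the 24 hours was 37.0% against 44.3% for MDP1. The sum was not steady at 16 h and 18 h, where it was 8.89 and 6.63 FPKM against a usual median of 3.57 FPKM.

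COMMD3-BMI1 joins a COMM-domain protein of endosomal sorting to BMI1, a subunit of Polycomb repressive complex 1. It was 14.8 FPKM at 6 h and 15.9 FPKM at 32 h, while its usual hours had a median of 2.55 and a highest value of 6.55 FPKM. It was under 0.1 FPKM at 36 h and 40 h, with 2.45 FPKM at 38 h between them. Its upstream parent COMMD3 was 42.3 FPKM at 6 h, between 61.7 and 63.7 FPKM at 4 h and 8 h, and 32.5 FPKM at 32 h, below its usual lowest value of 40.0 FPKM. BMI1 was 71.4 and 61.3 FPKM at 6 h and 32 h, within its usual range of 45.5 to 74.0 FPKM. COMMD3-BMI1 moved with COMMD3 in 5 of 23 steps, a count that 124 genes did not exceed, and with BMI1 in 11.

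RBM14-RBM4 was high at 4 hours that differ across the whole table. It was 34.5 FPKM at 6 h, 38.3 FPKM at 16 h, 39.5 FPKM at 18 h and 31.9 FPKM at 32 h, and each value was above its usual range of 17.7 to 28.2 FPKM. RBM4 was also above its usual highest value of 54.9 FPKM at 16 h and 18 h, with 59.1 and 60.7 FPKM. RBM14 was 49.4 and 45.7 FPKM at 16 h and 18 h, in the lower part of its usual range of 43.9 to 82.3 FPKM.

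CHURC1-FNTB joins a zinc finger gene to the beta subunit of farnesyltransferase, and it was low at 6 h and 32 h. It was 0.0756 FPKM at 6 h and 0.434 FPKM at 32 h, below all usual hours, which ran from 3.38 to 10.9 FPKM with a median of 7.47 FPKM. FNTB was 10.8 and 8.97 FPKM at those hours, the first of them above its usual range of 5.92 to 10.5 FPKM. CHURC1 was 44.8 and 34.4 FPKM, within its usual range of 33.5 to 51.4 FPKM. CHURC1-FNTB and FNTB took the same direction in 9 of 23 steps.

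Across the 25 trios, the counts of shared steps were mostly near or below that of a median gene. With the downstream parent a median of 9 of 23 steps had the same direction, from 2 in TMED7-TICAM2 to 13 in ATP5MF-PTCD1. Readthrough genes shared a median of 10 steps with the upstream parent, and the parents shared a median of 10 with each other. The median over all other genes was 11, and 24 of the 25 readthrough genes shared fewer steps with the downstream parent than the median gene did, against 14 of 25 for the upstream parent. NME1-NME2 and NME2 shared 4 steps, a count that 95 genes did not exceed. PKD1P6-NPIPP1 shared 5 with NPIPP1, which 681 genes did not exceed, and ZHX1-C8orf76 shared 7 with ZHX1, which 527 did not exceed. Other pairs moved together. SYNJ2BP-COX16, whose upstream parent is not listed, shared 16 steps with COX16, CKLF-CMTM1 shared 17 with CKLF, TEN1-CDK3 shared 16 with TEN1 and PKD1P6-NPIPP1 shared 15 with PKD1P6. The sum of a readthrough gene and a parent had a lower coefficient of variation over the 24 hours than the parent in 24 of 27 pairs with the downstream parent and in 23 of 32 with the upstream parent. Sums with unrelated genes were not computed, so these counts have no baseline. Some sums were mostly the readthrough gene, as ANKHD1-EIF4EBP3 was 661% of EIF4EBP3. These counts are descriptions of 1 course, and the genes of a trio share their libraries and part of their reads. The authors' software divides reads that fit several transcripts by a model, and the part of that division in these values was not tested.

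**Figure D3:**
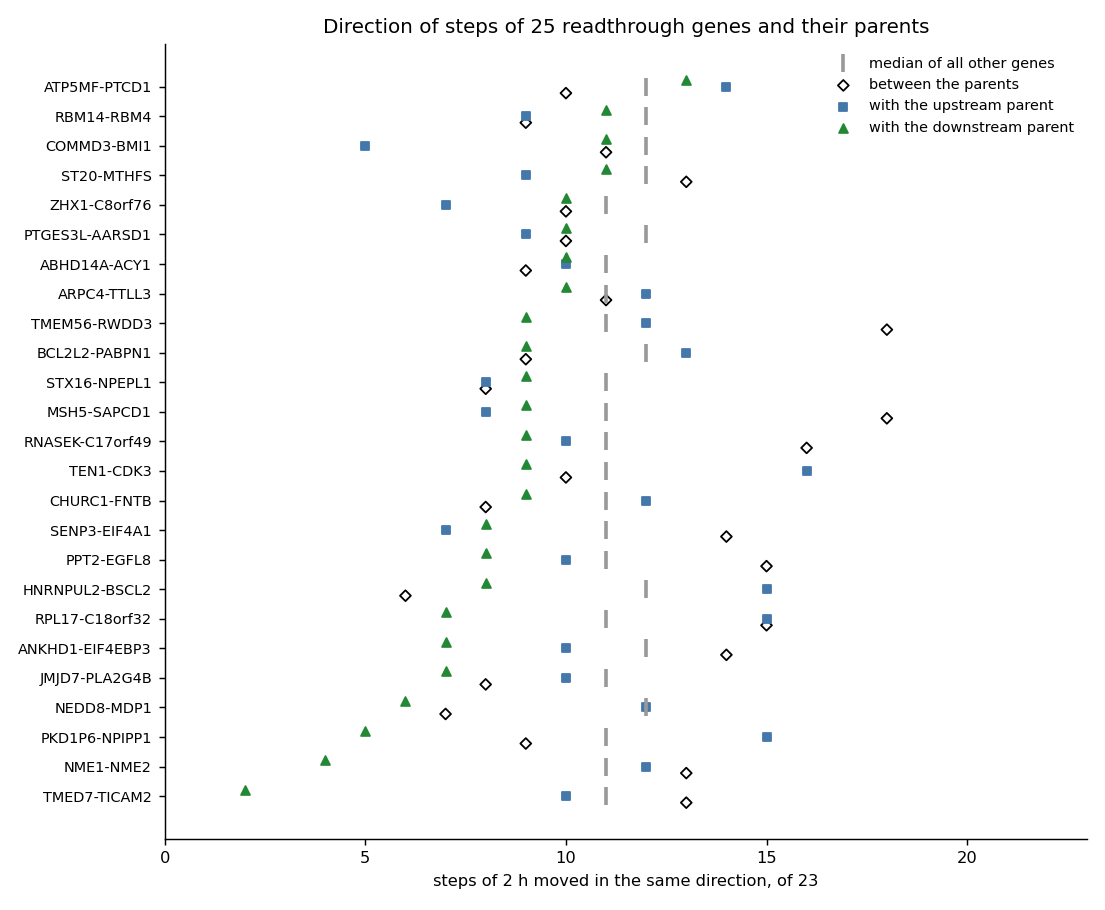
Number of the 23 steps of 2 h that moved in the same direction (horizontal) for the 25 readthrough genes with both parents listed, counted with the upstream parent (blue squares), with the downstream parent (green triangles) and between the parents (open diamonds). Grey bars mark the median of all other genes for that readthrough gene; the downstream count lies left of it in 24 of 25 rows, and TMED7-TICAM2 has the lowest count, 2.

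At 16 h and 18 h, 9 of the 36 readthrough genes were at least 2-fold below the line between 14 h and 20 h, against 7.11% of all genes tested. At least 2-fold above it were 2 readthrough genes, against 8.95% of all genes. The median deviation of the readthrough genes was -0.54 on the log2 scale, against -0.17 for the 59 parents and 0.14 for all genes. Of the parents, 5 were at least 2-fold below and 2 at least 2-fold above. In the 16 other pairs of neighbouring hours measured the same way, between 0 and 3 readthrough genes were at least 2-fold below and between 0 and 4 at least 2-fold above, with medians from -0.09 to 0.12.

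The 9 readthrough genes below the line came from parents of many functions. After NME1-NME2 the lowest was ABHD14A-ACY1 (-1.79), which ends in an aminoacylase gene. RNASEK-C17orf49 (-1.60) begins with a ribonuclease gene, and ST20-MTHFS (-1.52) ends in a folate enzyme gene. PKD1P6-NPIPP1 (-1.50), PPT2-EGFL8 (-1.40), RTEL1-TNFRSF6B (-1.38), RPL17-C18orf32 (-1.28) and SYNJ2BP-COX16 (-1.10) completed the group. RTEL1 is a telomere helicase, and RPL17 is a ribosomal protein of the large subunit. The nearest below the threshold of 2-fold were TMED7-TICAM2 (-0.99) and MSH5-SAPCD1 (-0.95).

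The group at least 2-fold above the line was NEDD8-MDP1 (1.97) and CENPS-CORT (1.07), which joins a centromere protein to a neuropeptide gene. CENPS-CORT was 4.05 FPKM at 16 h and 7.39 FPKM at 18 h, against usual hours with a lowest value of 0.725, a median of 1.69 and a highest value of 2.36 FPKM. CENPS was 29.4 and 32.0 FPKM, also above its usual highest value of 24.7 FPKM. RBM14-RBM4 (0.91), COMMD3-BMI1 (0.70) and ANKHD1-EIF4EBP3 (0.61) followed.

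ABHD14A-ACY1 was 0.779 FPKM at 16 h and under 0.1 FPKM at 18 h, against usual hours with a lowest value of 0.865, a median of 2.39 and a highest value of 5.25 FPKM. ACY1 was 18.7 and 16.5 FPKM, below its usual lowest value of 31.5 FPKM, and ABHD14A was 7.67 and 6.63 FPKM, above its usual highest value of 5.75 FPKM. ST20-MTHFS was 0.203 and 0.233 FPKM at these hours, against a usual range of 1.33 to 6.68 FPKM. MTHFS was 28.3 and 26.0 FPKM, within its usual range of 19.3 to 31.9 FPKM, and ST20 was 7.12 and 4.97 FPKM, the first value above its usual highest of 6.80 FPKM. RTEL1-TNFRSF6B was 1.43 and 1.40 FPKM, against a usual range of 3.92 to 6.88 FPKM.

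Without reference to a fold, 14 readthrough genes were below all 17 usual hours at both 16 h and 18 h, against 21.8% of all genes tested. Above all usual hours at both were 6 readthrough genes, against 35.0% of all genes. In the 25 trios, the deviation of the readthrough gene was below those of both parents in 14. It had the opposite sign to that of the downstream parent in 14 trios and to that of the upstream parent in 11. GC content differed over all genes between those below and those above the line, and its part in the readthrough genes was not tested. The median GC content over transcripts was 53.4% in readthrough genes, 52.5% in parents and 47.8% in all genes. It was 60.3% in all genes at least 2-fold below the line against 42.8% in those at least 2-fold above it. With the median deviation of 20 bins of GC content removed, 10 readthrough genes were at least 2-fold below and 3 above, with a median of -0.31, against 3.98% of all genes below, 5.39% above and a median of 0. This was an alternative added after seeing the data.

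**Figure D4:**
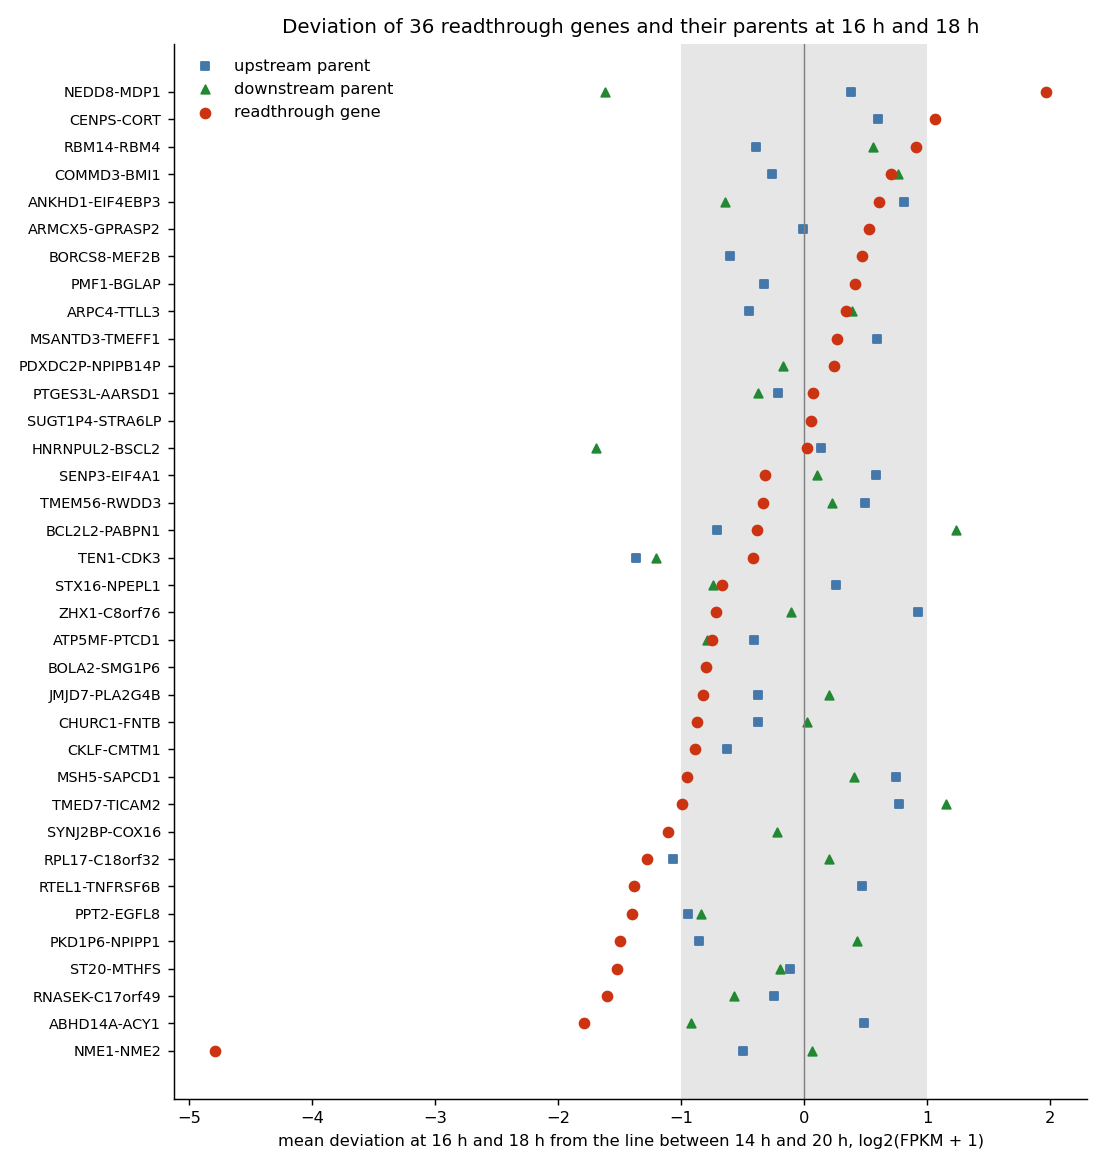
Departure from the line that joins 14 h and 20 h, averaged over 16 h and 18 h on the log2(FPKM + 1) scale (horizontal), for the 36 readthrough genes (red circles), their upstream parents (blue squares) and their downstream parents (green triangles). The grey band spans deviations under 2-fold; 9 readthrough genes lie left of it, with NME1-NME2 at -4.79, and 2 lie right of it.

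At 32 h, 1 readthrough gene was at least 2-fold above the mean of its neighbouring hours, against 0.449% of all genes tested, and 3 were at least 2-fold below, against 1.01%. The first was COMMD3-BMI1 (1.04) and the others were CHURC1-FNTB (-2.65), NME1-NME2 (-2.46) and RNASEK-C17orf49 (-1.96). At 6 h, COMMD3-BMI1 (2.42) was again the 1 readthrough gene above, against 0.571% of all genes. CHURC1-FNTB (-2.88) and PKD1P6-NPIPP1 (-1.06) were the 2 below, against 0.865% of all genes. None of the 59 parents was 2-fold off at 32 h, and 1 was at 6 h. At both hours 4 readthrough genes were above their usual range, against 12.1% of all genes tested, namely ANKHD1-EIF4EBP3, COMMD3-BMI1, HNRNPUL2-BSCL2 and RBM14-RBM4. CHURC1-FNTB and PKD1P6-NPIPP1 were the 2 below it at both, against 4.51% of all genes.

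The hours 22 h, 28 h and 30 h gave fewer departures. On average over them, 2 readthrough genes were at least 2-fold above the median of their usual hours, against 0.351% of all genes tested. These were NME1-NME2 (1.73) and COMMD3-BMI1 (1.07). No readthrough gene was at least 2-fold below, against 0.351% of all genes, and no parent was past this threshold in either direction.

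RNASEK-C17orf49 was low at many hours. It was under 0.1 FPKM at 16 h and 32 h, 0.401 FPKM at 6 h, 0.425 FPKM at 8 h and 0.354 FPKM at 26 h, and it reached 5.69 FPKM at 28 h. RNASEK was 160 FPKM at 6 h and 207 FPKM at 32 h, above its usual range of 107 to 145 FPKM. C17orf49 stayed between 10.7 FPKM at 18 h and 22.8 FPKM at 12 h.

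**Figure D5:**
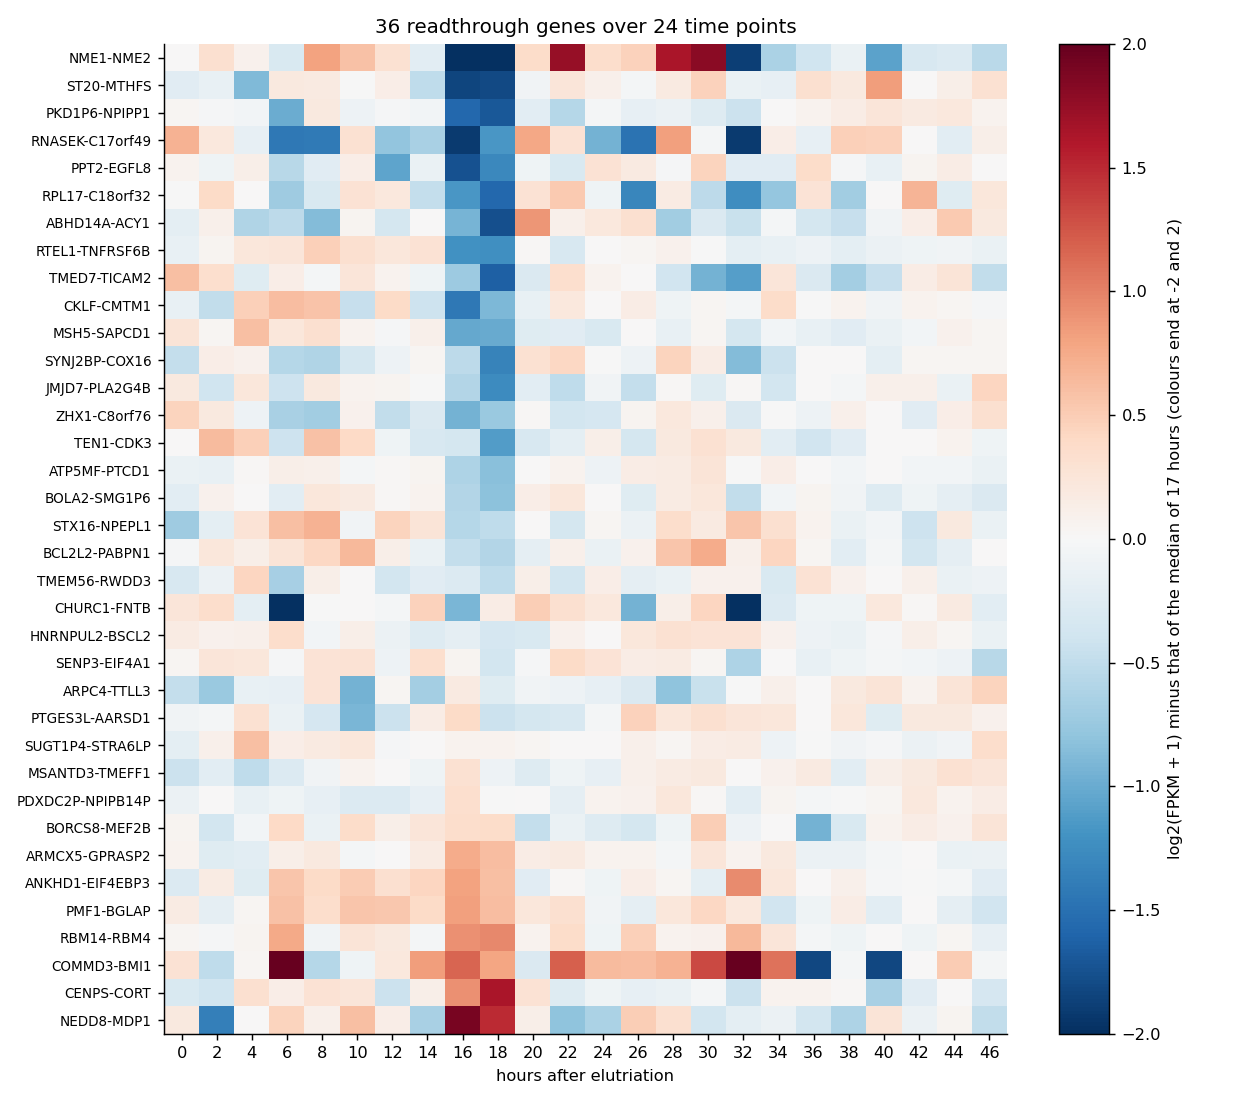
Level of the 36 readthrough genes (rows) at each of the 24 hours after elutriation (columns), as log2(FPKM + 1) minus that of the median of the 17 usual hours, with red above and blue below it and colours ending at -2 and 2. Rows are ordered by the value at 16 h and 18 h; NME1-NME2, at the top, is blue at those hours and red at 22 h, 28 h and 30 h, and CHURC1-FNTB and COMMD3-BMI1 show opposite colours at 6 h and 32 h.

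Readthrough genes were uneven from hour to hour. Unevenness was measured as the median absolute difference of an hour from the mean of its neighbours, on the log2(FPKM + 1) scale and without 16 h and 18 h. Its median was 0.20 in readthrough genes, 0.10 in parents and 0.09 in all genes. Among 3285 genes with a mean of 1 to 5 FPKM it was 0.13, against 0.20 in the 26 readthrough genes below 5 FPKM. In 18 of 25 trios the readthrough gene was more uneven than both parents. COMMD3-BMI1 (0.73) was the 1 readthrough gene with an unevenness of 1.5-fold or more, against 0.873% of all genes tested.

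Unevenness differed with the exon bases a readthrough gene had to itself, as a description with no test. In the 7 without any, the median was 0.40, from 0.08 in HNRNPUL2-BSCL2 to 0.73 in COMMD3-BMI1. In the 11 with some but under 10%, the median was 0.20, and in the 18 with 10% or more it was 0.16. The groups overlapped. The mean level also differed between the groups, with medians of 4.63, 2.12 and 3.02 FPKM, and its part in the unevenness was not tested. A value under 0.1 FPKM was found in 7 readthrough genes, against 1.98% of all genes tested. Median levels were 2.71 FPKM in readthrough genes and 13.7 FPKM in all genes, and the share among genes of matched level is not given. All 7 were among the 18 readthrough genes with under 10% of exon bases of their own. None of the 864 values of readthrough genes was an exact 0, and 9 were under 0.1 FPKM.

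JTK, a rank test for a rhythm of 24 h, called 3 readthrough genes at an adjusted permutation p of 0.05 or below, against 13% of all genes. The Benjamini-Hochberg adjustment covered all 12285 genes. BCL2L2-PABPN1 joins an anti-apoptotic protein to the nuclear poly(A)-binding protein, and had an adjusted permutation p of 0.00259 with its peak at 6 h. Its lowest, median and highest values in the usual hours were 2.68, 3.76 and 6.43 FPKM, and its highest value of the course was 6.94 FPKM at 30 h. HNRNPUL2-BSCL2 had an adjusted permutation p of 0.0133, and STX16-NPEPL1, which joins a syntaxin to an aminopeptidase-like gene, one of 0.0287. At an unadjusted permutation p under 0.05 there were 7 readthrough genes, which is 19.4% of them, against 30.2% of all genes tested. ATP5MF-PTCD1 had the next adjusted permutation p (0.0801), followed by NME1-NME2 and ANKHD1-EIF4EBP3, which shared an adjusted permutation p of 0.130. Of the 59 parents, 7 were called.

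The days were compared at 10 matched hours. No readthrough gene was 1.5-fold apart between the first and the second day in either direction, against 1.83% of all genes tested that were higher on the second day and 0.400% that were lower. No test was made of this difference. The largest differences, second day minus first on the log2 scale, were 0.50 in COMMD3-BMI1, -0.44 in TMED7-TICAM2 and 0.44 in PTGES3L-AARSD1.

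The authors also deposited a cleaned table, a score in which every library has the same distribution. In the deposited FPKM, 29 of the 36 readthrough genes had their highest or lowest value of the first 12 hours at 16 h or 18 h, where 74.3% of all genes tested had theirs. In the cleaned table this held for 12 of 36, and for 41.8% of all genes. JTK called 3 readthrough genes in the cleaned table, and they were the same 3.

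The machinery that ends transcripts and removes faulty ones was listed for the same hours. Of 31 genes of 3′ end formation and termination, all in the table, 7 were at least 2-fold above the line at 16 h and 18 h and 0 at least 2-fold below. Of all genes tested, 8.95% were above and 7.11% below. The median of the 31 was 0.71, against 0.14 in all genes. FIP1L1 (1.77), a subunit of the cleavage and polyadenylation specificity factor, was the highest, and PABPN1 (1.24) and PAPOLA (1.15), the poly(A) polymerase, were among the 7. The genes of this list below the line were CPSF1 (-0.90), CPSF4 (-0.70) and CLP1 (-0.68). Of 16 genes of nonsense-mediated decay, 4 were above and 0 below, against the same shares of all genes, with a median of 0.33. The 4 were UPF3B (1.68), RBM8A (1.64), CASC3 (1.32) and UPF2 (1.20). UPF1 (-0.96), the helicase of the pathway, and EIF4A3 (-0.98), a core protein of the exon junction complex, were lower. JTK called 3 of the 31 genes of the first list and 4 of the 16 of the second, against 13% of all genes. The part of either group in the levels of the readthrough genes was not tested.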

How the data were processed

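RNA was sequenced in 24 K562 samples, 1 per time point, and each was assigned to its hour from the labels. According to the methods and processing notes, the authors aligned reads with STAR on GRCh37 and quantified them with Cufflinks2 and Cuffnorm, and deposited FPKM. Further version numbers and the annotation are not given in the sources used here. The cleaned table deposited by the authors holds a score (Z-score followed by quantile normalization). No count was recovered, so depth and counting error are unknown, and with 1 library per hour p-values speak only of time order within this course.

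Genes were matched to GENCODE 29 (GRCh38) by identifier. The annotation gave symbols, exons, GC content and transcript sequences, and no value was placed on its coordinates. Genes whose mean reached 1 FPKM were kept and log2(FPKM + 1) was used. The value at 16 h and 18 h was the mean deviation from the line between 14 h and 20 h, and that at 6 h and 32 h the deviation from the mean of the neighbours. JTK used a 24 h period and 12 phases with 100000 permutations, where the smallest p is 1e-05, adjusted over all genes. Readthrough genes were named by a rule: NME1-NME2, the 5 most abundant, the 5 highest and 5 lowest at 16 h and 18 h, the 5 with the largest share of their trio, the 5 highest by JTK, the 2 furthest apart between days, those listed at 0 most often (none was) and their parents. Others named, and all past a threshold, were chosen after their values were seen. The members, gene lists and thresholds were chosen with earlier results of these data known. The scripts were tested on simulated data and used python 3.11.15, numpy 2.4.6, pandas 2.3.3, scipy 1.17.1 and matplotlib 3.10.9.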

Additional observations from a re-analysis of the deposited data

How the results depend on the processing

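Of 50 values recomputed with other settings, 26 stayed within their limits, 24 moved and 0 changed sign. Counts and shares cannot change sign, so the last number speaks only of the median deviations and of NME1-NME2. With a pseudocount of 0.1, 14 readthrough genes were at least 2-fold below at 16 h and 18 h with a median of -0.78 (1308 of all genes were below and 1344 above), NME1-NME2 was at -5.98, 8 genes were 2-fold off at 32 h and 6 at 6 h, 4 passed the unevenness threshold and 3 the threshold between days. With a mean of at least 5 FPKM, 10 readthrough genes were left, of which 0 were above and 3 below with a median of -0.81. Of all 8968 genes left, 944 were above and 676 below. Of the 10 readthrough genes, 0 passed the unevenness threshold. Median centring gave 1 above, 11 below and a median of -0.65, and upper-quartile scaling gave 1 above, 12 below and a median of -0.67. Over all genes the counts above and below, 1097 and 871 as deposited, became 794 and 1129 with centring and 568 and 1321 with upper-quartile scaling, and the median moved from 0.14 to 0.02 and -0.07. At 1.5-fold, 5 readthrough genes were above and 18 below, against 23.9% and 16.8% of all genes, and 9 were off at 32 h and 9 at 6 h. Under these settings no share of all genes was computed at 32 h, at 6 h, for unevenness or between days. Those counts therefore cannot be read as particular to the readthrough genes. At 16 h alone 1 was above and 10 were below, against 7.28% and 6.32% of all genes, and the median was -0.42. JTK called 0 readthrough genes at a 20 h period (2.20% of all genes), 1 at 28 h (3.56%) and 5 without 16 h and 18 h (16.2%). Of 8 values under alternatives added after seeing the data 1 moved, the median with the GC trend removed (-0.31). The causes were not tested. No paired analysis was possible because each hour had 1 library. The lack of replicates and of read counts limits every value, low readthrough genes most of all.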
